A study of Mus musculus with 4 samples.

Results

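Microglia labelled wild type (WT) and exposed to lipopolysaccharide (LPS) for 3 h were compared with untreated WT microglia, as the log2 value on the LPS array minus the log2 value on the control array. All 19938 genes that the platform annotation names with a single symbol entered the comparison, of 28944 probe sets on the array. Of these, 11129 genes reached a floor of 4.26 on the higher of the 2 arrays (the median over all probe sets of their mean on the 4 arrays of the series), and the counts below are of genes over that floor. The other 8809 genes were not counted.

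The series holds 4 Affymetrix Mouse Gene 1.0 ST arrays of total RNA from mouse microglia, which read a transcript with probes spread along its length. The groups used here are WT microglia of strain C57Bl with LPS for 3 h (1 array), WT microglia of strain C57Bl without an agent (1 array), and, for values side by side, microglia labelled Bid-/- with LPS for 3 h (1 array) and without an agent (1 array). The labels state no LPS dose, age, sex or number of cultures, and no strain for the Bid-/- arrays. On the arrays labelled Bid-/-, the probe set of Bid read 5.97 with LPS and 5.53 without, beside 5.02 with LPS and 5.69 without on the WT arrays. Under that label Bid was thus higher with LPS and only slightly lower without. Whether the probe set lies in the deleted part is not stated, and genotypes are called by their labels throughout. Nothing was replicated, so each change is a difference between single arrays with no replicate check, and no p-value is given.

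LPS is a cell wall component of Gram-negative bacteria. On microglia, the resident macrophages of the brain, it is bound by Cd14 and by the complex of Tlr4 and Ly96, which signals through the adaptors Myd88 and Ticam1 to NF-kB, MAP kinases and interferon regulatory factors. The response is known to unfold in waves, in which early transcription factors and cytokine genes come up first and inhibitors of the pathway are themselves among its targets.

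With LPS, 266 genes were at least 2-fold higher, which is 2.39% of the genes over the floor, and 231 were lower by 2-fold or more (2.08%). The median change over all genes was -0.05, with quartiles of -0.34 and 0.19, and 54.7% of genes were below 0 and 44.0% above. Large changes ran upwards: 64 genes were higher by 4-fold or more and 10 lower, and 20 were higher by 8-fold or more, against 0 lower. At a smaller fold the order was the other way round, with 646 genes higher and 1231 lower by 1.5-fold or more. Across all probe sets the LPS and control arrays had a Pearson's r of 0.986, and their differences had a SD of 0.371. The untreated arrays of the series, labelled Bid-/- and WT, differed with a SD of 0.186. This is the yardstick used here for the spread between arrays, and it holds the genotype label as well. The spread between the LPS arrays of the WT and Bid-/- labels was not computed.

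**Figure D1:**
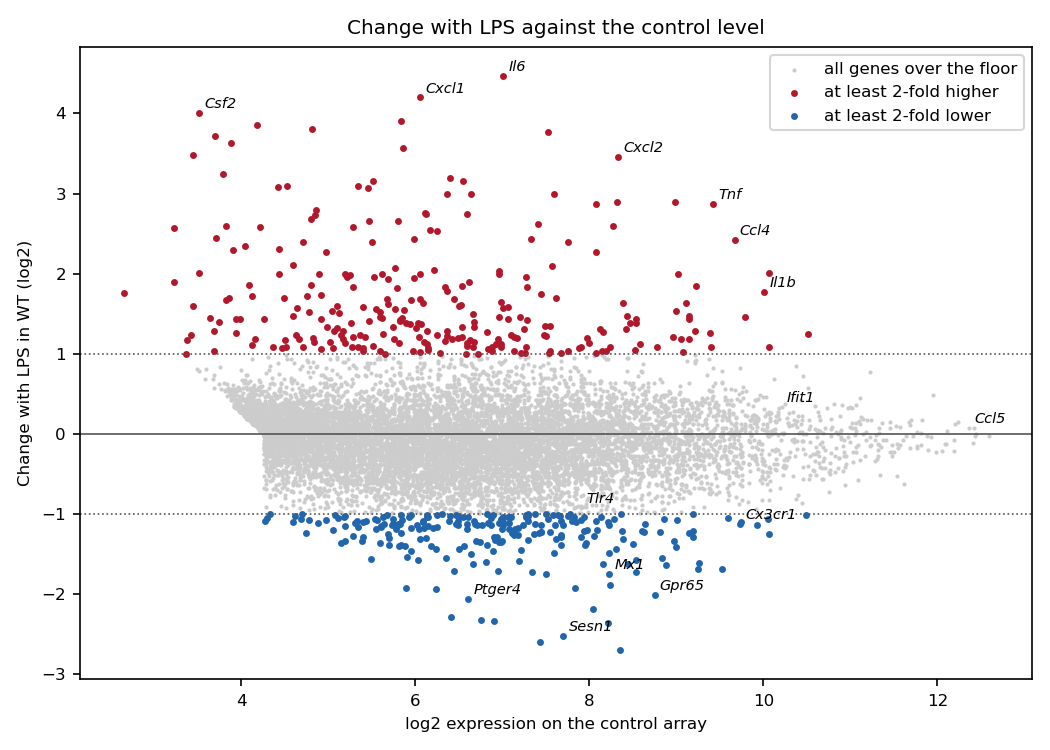
Change with LPS in WT (log2, LPS array minus control array) against the log2 expression on the control array, for 11129 genes over the floor; red points mark the 266 genes higher by 2-fold or more, and blue points the 231 lower. The highest point is Il6 at 4.47, while Ccl5 sits at 0.08 with a control level of 12.36.

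The cytokine interleukin-6 gave the highest change. Il6 read 11.48 on the LPS array and 7.01 on the control array, a change of 4.47 or 22.2-fold. Cxcl1, a chemokine that attracts neutrophils, read 10.26 with LPS and 6.06 without (4.20, 18.4-fold), and Csf2, which encodes the growth factor GM-CSF, read 7.53 with LPS and 3.52 without (4.01, 16.1-fold). These were the 3 genes past 16-fold. The control value of Csf2 lay under the floor, so the size of its change rests on a reading near background. Of the 266 higher genes, 32 were under the floor on the control array, and 29 of the 231 lower genes were under it on the LPS array.

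**Figure D2:**
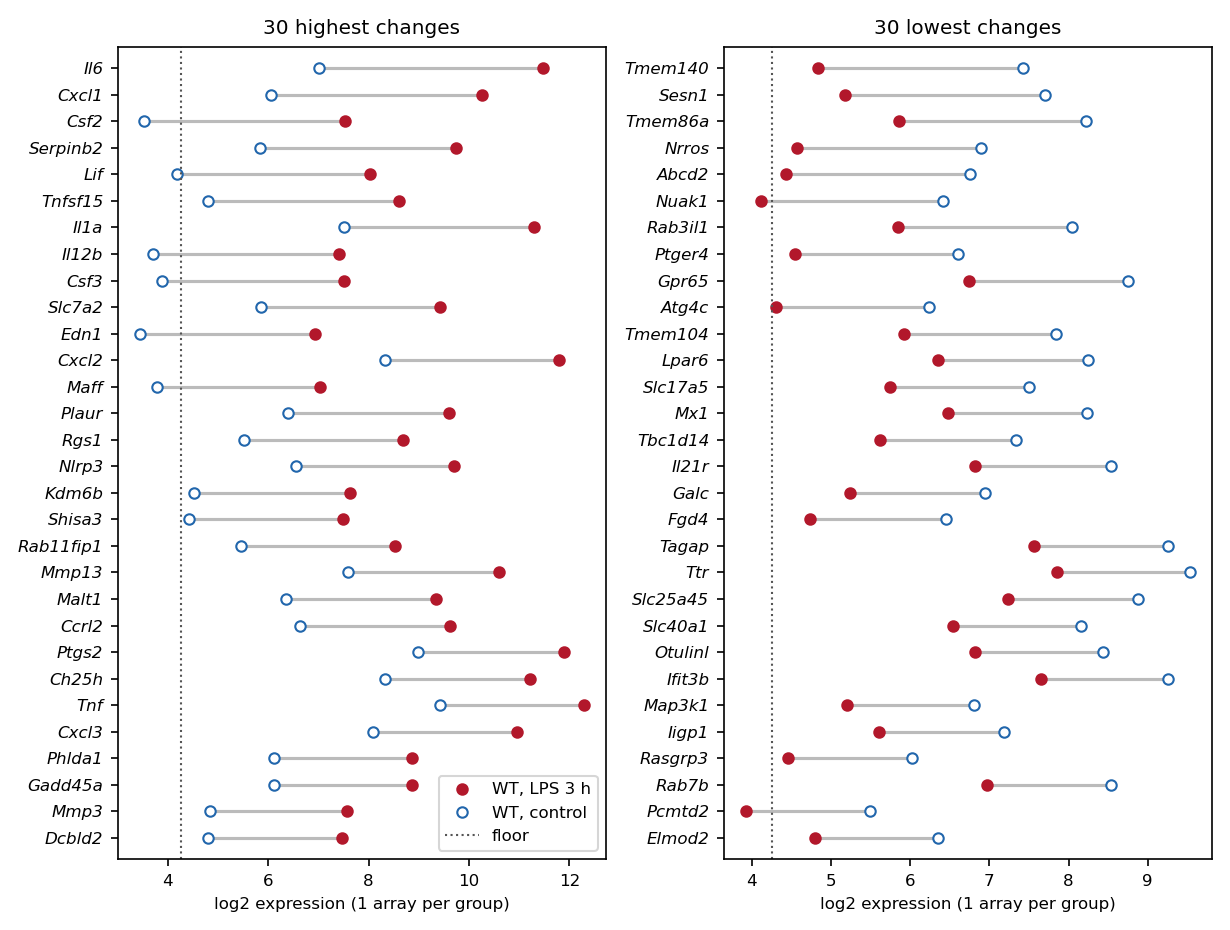
Log2 expression of the 30 named genes with the highest and the 30 with the lowest change in WT, with the LPS array as filled and the control array as open points, 1 array each, and the floor as a dotted line. Csf2, Edn1, Il12b, Maff, Csf3 and Lif start under the floor on the control array, and Nuak1 and Pcmtd2 end under it on the LPS array.

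Genes that sense LPS changed little. Of 24 TLR4 receptor and adaptor genes over the floor, 0 were higher and 0 lower by 2-fold or more, and the median change was 0.145. Tlr4 itself, the signalling receptor, was lower on the LPS array, at 6.99 against 7.91 on the control array (-0.92). Its partners differed less: the co-receptor Cd14 read 11.19 with LPS and 10.81 without, the lipid-binding subunit Ly96 8.69 with LPS and 8.28 without, and the adaptor Myd88 9.92 with LPS and 9.79 without. Ticam2, the bridging adaptor of the Ticam1 branch, had the highest change of the list at 0.87. Among 27 other pattern receptors and inflammasome genes, 2 were at least 2-fold higher. Nlrp3, the inflammasome sensor, read 9.71 with LPS and 6.55 without (3.16), and Clec4e, the C-type lectin Mincle, read 10.62 with LPS and 9.15 without (1.47). The endosomal receptor of unmethylated DNA, Tlr9, differed by -0.86.

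NF-kB is held in the cytoplasm by IkB proteins and is switched off by genes that it induces. Of 23 NF-kB subunits and feedback genes, 11 were higher by 2-fold or more and 0 lower, with a median of 0.98. Malt1, the paracaspase of a pathway that activates NF-kB, read 9.35 on the LPS array and 6.36 on the control array (2.99). Tnfaip3, which encodes the ubiquitin-editing inhibitor A20, read 9.76 with LPS and 7.33 without (2.43). The inhibitors Nfkbid, Nfkbib and Nfkbia were 1.69, 1.47 and 1.46 higher, and the signalling adaptor Traf1 was 1.75 higher. Of the subunits, Rel was 1.38 and Rela 1.08 higher. Both activating and inhibiting members of the pathway were thus among the 11.

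Early transcription factors, which other cells also induce within the first hours of a stimulus, gave 10 of 25 genes at least 2-fold higher and a median of 0.65. Of the 10, 2 (Maff and Nr4a1) reached the floor on the LPS array alone, and of the 23 over it on the control array 8 were higher. Maff, a small Maf factor, read 7.03 with LPS and 3.79 without (3.24). Ier3, Ier2, Egr1, Nr4a1 and Junb were 2.40, 1.98, 1.86, 1.86 and 1.55 higher. The founding members of the AP-1 family went the other way at this time: Fos read 5.96 with LPS and 6.47 without (-0.51), and Jun 5.92 with LPS and 6.75 without (-0.83). Neither reached 2-fold. Of 17 genes of MAP kinase feedback, 5 were higher by 2-fold or more and 0 lower. Gadd45a, a stress-induced gene that acts on the p38 pathway, read 8.86 with LPS and 6.12 without (2.74). Dusp1, Dusp2 and Dusp16, phosphatases that inactivate MAP kinases, were 2.27, 1.99 and 1.99 higher, and Gadd45b was 1.44 higher.

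Proteins that shorten the life of cytokine mRNAs moved both ways. Among 16 mRNA decay and translation regulators, Zc3h12a, the endonuclease Regnase-1, read 8.66 with LPS and 7.07 without (1.59). Zfp36, which encodes tristetraprolin, was 0.97 higher, just short of 2-fold. Its relative Zfp36l2 read 6.40 with LPS and 7.68 without (-1.28), and was the 1 member at least 2-fold lower.

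**Figure D3:**
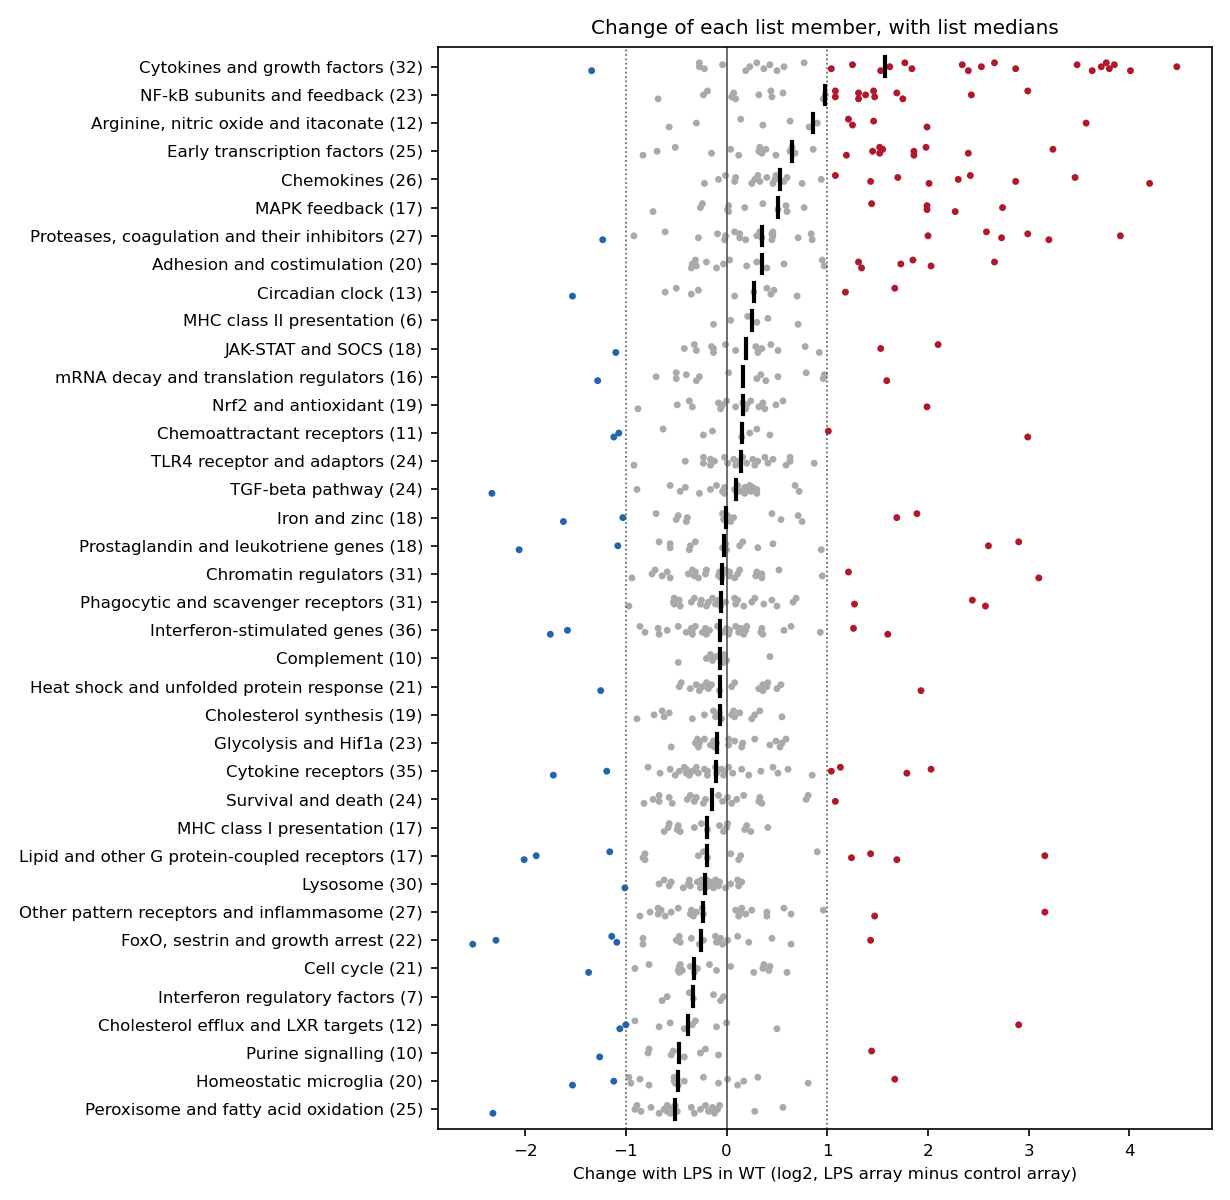
Change with LPS in WT (log2) of each gene over the floor, by list, with the number of genes in brackets and the list median as a black bar; red and blue points are at least 2-fold higher and lower. Medians run from 1.575 for cytokines and growth factors to -0.51 for peroxisome and fatty acid oxidation genes.

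Of 32 cytokine and growth factor genes over the floor, 19 were higher and 1 lower by 2-fold or more, with a median of 1.575 beside -0.05 for all genes. Of the 19, 7 reached the floor on the LPS array alone, and a further 13 members with a value were under it on both arrays, so this count and median are of selected members. Over all 45 members with a value 20 were higher by 2-fold or more and the median was 0.57, and of the 23 over the floor on the control array 12 were, with a median of 1.25. Il1a, an alarmin of the interleukin-1 family, read 11.29 with LPS and 7.52 without (3.77), and Il1b, its secreted relative, 11.78 with LPS and 10.01 without (1.77). Tnf, the founding TNF family cytokine, read 12.29 with LPS and 9.42 without (2.87). Both Il1b and Tnf thus had high readings on the untreated array.

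Growth and differentiation factors were among the highest changes. Lif, an interleukin-6 family cytokine, read 8.03 with LPS and 4.18 without (3.85), and Csf3, which encodes G-CSF, 7.51 with LPS and 3.88 without (3.63). Il12b, the p40 subunit shared by interleukin-12 and interleukin-23, read 7.42 with LPS and 3.70 without (3.72). The TNF family ligand Tnfsf15 was 3.80 higher, and Edn1, the precursor of the vasoconstrictor endothelin-1, read 6.93 with LPS and 3.45 without (3.48). An anti-inflammatory cytokine came up with them: Il10 read 8.78 with LPS and 6.25 without (2.53). Among members named after their values were seen, Il27 was 2.66, Il19 2.34, the interleukin-1 receptor antagonist Il1rn 1.62, and Osm 1.53 higher. The 1 member at least 2-fold lower, also named after its value was seen, was the death ligand Tnfsf10, at 3.85 with LPS and 5.19 without (-1.34). Ifnb1, interferon beta, read 4.24 with LPS and 3.09 without and did not reach the floor, so it was not counted.

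Of 26 chemokine genes over the floor, 9 were at least 2-fold higher, 0 lower, and 23 above 0, with a median of 0.53. Of the 9, 1 (Ccl22) reached the floor on the LPS array alone. Cxcl2, a neutrophil attractant like Cxcl1, read 11.79 with LPS and 8.33 without (3.46). Cxcl3 read 10.95 with LPS and 8.08 without (2.87). Ccl4, which attracts monocytes and T cells, was 2.42 higher, Ccl22 2.30, and the interferon-inducible Cxcl10 2.01. Other chemokines were high without LPS and hardly differed: Ccl3 read 12.43 with LPS and 11.95 without (0.48), and Ccl5 12.44 with LPS and 12.36 without (0.08). The monocyte attractant Ccl2 was 0.94 higher.

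Cxcl3, Cxcl1 and Cxcl2 are consecutive among the genes over the floor on chromosome 5, within 119838 bp, and all changed by at least 2.87. Their promoters are shown because these neighbours moved together and NF-kB is the transcription factor of the LPS pathway. The windows run from 250 bases before to 50 after the gene's start in RefSeq, build GRCm38.p6, on the plus strand, with matches to the NF-kB consensus in capitals. The windows are chr5:90890995-90891294 for Cxcl1, chr5:90903649-90903948 for Cxcl2 and chr5:90785851-90786150 for Cxcl3.
Cxcl1: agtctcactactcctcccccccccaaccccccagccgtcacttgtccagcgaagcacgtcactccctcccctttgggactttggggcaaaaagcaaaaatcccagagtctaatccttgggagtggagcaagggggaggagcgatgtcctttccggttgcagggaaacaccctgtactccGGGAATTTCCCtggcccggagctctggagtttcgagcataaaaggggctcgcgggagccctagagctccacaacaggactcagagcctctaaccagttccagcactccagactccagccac
Cxcl2: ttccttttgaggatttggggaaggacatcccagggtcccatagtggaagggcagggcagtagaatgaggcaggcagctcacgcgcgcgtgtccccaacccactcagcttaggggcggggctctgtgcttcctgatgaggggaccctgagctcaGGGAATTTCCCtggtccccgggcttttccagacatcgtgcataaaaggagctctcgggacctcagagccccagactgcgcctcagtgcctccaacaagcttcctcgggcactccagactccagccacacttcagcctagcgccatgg
Cxcl3: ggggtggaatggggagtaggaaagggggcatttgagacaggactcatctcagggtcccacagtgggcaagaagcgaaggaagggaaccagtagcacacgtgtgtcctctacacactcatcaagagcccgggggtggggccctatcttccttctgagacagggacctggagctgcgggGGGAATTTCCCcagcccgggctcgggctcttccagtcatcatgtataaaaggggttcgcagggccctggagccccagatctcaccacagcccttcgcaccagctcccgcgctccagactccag
Each window holds a pair of overlapping matches, which begin 71 and 70 bases before the start in Cxcl1, 97 and 96 in Cxcl2, and 73 and 72 in Cxcl3. The same capital letters stand in all 3. The search covered both strands, and 2779 of 32851 RefSeq promoter windows of this length (8.46%) held at least 1 match. Cxcl3 also holds the letters TATAAA, 30 bases before its start, which 13.6% of all windows hold on either strand. Of the other genes looked up, Il6 has 1 match, 44 bases before its start, Lif 1, 178 bases before, and Nfkbia 1, 29 bases before. The windows of Csf2, Il1a, Il1b, Il12b, Tnf, Tnfsf15 and Serpinb2, which were also higher, have 0 matches, as have both windows of Sesn1, which was lower. These are matches of letters, not binding sites, and binding was not measured. Of the 266 higher genes 190 (71.4%) had a window, too few for a share over the higher genes to be given. The Cxcl genes are paralogues with similar sequence, so their values are not fully independent readings.

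More of the higher genes were neighbours than was usual, where neighbours are genes next to each other among those over the floor. Of 265 higher genes with a position, 41 (15.5%) had a neighbour that was also higher. Of all 11105 genes over the floor with a position, 520 (4.68%) had a higher neighbour. They formed 19 runs, the longest of 3 genes. Pairs named after their values were seen include Il1a with Il1b on chromosome 2, Il19 with Il10 on chromosome 1, Osm with Lif on chromosome 11, and Ccl22 with Cx3cl1 on chromosome 8. For lower genes the share was 7.36% (17 of 231), against 4.08% of all genes with a lower neighbour. Many such pairs are duplicated genes of 1 family, so these counts describe the map and are not independent events. Genes under the floor were skipped, so neighbours can lie far apart. The higher genes D16Ertd472e and Mir155, for example, count as neighbours over a span of 6173869 bp.

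Some microRNA genes were among the higher genes. Of 88 genes annotated as microRNA in RefSeq and over the floor, 6 were at least 2-fold higher (6.82%, beside 2.39% of all genes over the floor) and 0 lower. Of these 6, 3 reached the floor on the LPS array alone. Among the 79 over the floor on the control array, 3 were higher by 2-fold or more. The share of 6.82% thus rests in part on the floor and is not read as a trait of the class. All 6 are named, after their values were seen. MicroRNAs pair with target mRNAs through a seed, bases 2 to 8 of the mature strand, and lower their output. The sequences below are the mature strands from RefSeq (GRCm38.p6), with the seed in capitals, shown so that shared seeds can be seen.
miR-222-3p: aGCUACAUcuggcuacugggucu
miR-221-3p: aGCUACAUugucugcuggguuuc
miR-155-5p: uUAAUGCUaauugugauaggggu
miR-18a-5p: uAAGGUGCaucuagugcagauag
miR-20a-5p: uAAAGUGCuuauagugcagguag
miR-19b-3p: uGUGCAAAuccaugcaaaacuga
Mir222 and Mir221 lie within 678 bp on chromosome X, and their 3p strands have the same seed. Mir222 read 7.86 with LPS and 5.28 without (2.58), and Mir221 8.41 with LPS and 5.98 without (2.43). Mir155, a microRNA induced in macrophages by Toll-like receptors that acts on the inhibitor Socs1 among others, read 9.23 with LPS and 7.27 without (1.96). Mir18, Mir20a and Mir19b-1 lie within 541 bp on chromosome 14, in the cluster named after Mir17, and carry 3 different seeds. They were 1.90, 1.45 and 1.24 higher, with control readings of 3.23, 3.64 and 3.42 that lie under the floor. The labels describe random-primed total RNA, and whether the probes read the primary transcript, the hairpin or the mature strand was not tested.

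Receptors for cytokines and chemoattractants split. Of 35 cytokine receptors 4 were higher and 2 lower by 2-fold or more, with a median of -0.11. Cd40, the receptor of T cell help, read 8.99 with LPS and 6.96 without (2.03), and Il17ra, a chain of the interleukin-17 receptor, 8.16 with LPS and 6.37 without (1.79). The receptors of interleukin-21 and interleukin-6 were lower: Il21r read 6.82 with LPS and 8.54 without (-1.72), and Il6ra read 5.89 with LPS and 7.08 without (-1.19), while its ligand Il6 had the highest change of all. Of 11 chemoattractant receptors, Ccrl2, which binds chemerin, read 9.63 with LPS and 6.64 without (2.99), and Ccr7, the receptor that guides cells to lymph nodes, 7.30 with LPS and 6.29 without (1.01). Cx3cr1, the fractalkine receptor of resting microglia, read 8.61 with LPS and 9.73 without (-1.12), and Cxcr4 was lower by -1.07. In the JAK-STAT pathway, below these receptors, the feedback inhibitor Socs3 read 9.67 with LPS and 7.57 without (2.10), and the kinase Pim1 was 1.53 higher. Stat2, part of the factor that type I interferon activates, was at 8.64 with LPS and 9.74 without (-1.10).

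Interferon-stimulated genes did not follow the cytokines. Of 36 genes, 2 were higher and 2 lower by 2-fold or more, with 16 above 0, 19 below 0 and a median of -0.065. Gbp5, a guanylate-binding GTPase, read 8.10 with LPS and 6.50 without (1.60), and Ifi205 was 1.26 higher. Mx1, an antiviral GTPase, read 6.48 with LPS and 8.23 without (-1.75), and Iigp1, an immunity-related GTPase, 5.61 with LPS and 7.19 without (-1.58). Ifit3b, which is off the list, read 7.65 with LPS and 9.26 without (-1.61), and its close copy Ifit3 was at -0.86, so their values are uncertain as separate readings. All 7 interferon regulatory factors over the floor were below 0, with a median of -0.33. The lowest of them were Irf1 at -0.64 and Irf8 at -0.59, and Irf3, the factor of the Ticam1 branch, was at -0.06. None of the 7 reached 2-fold. Many members already had high readings without LPS, such as Irf7 at 11.19 with LPS and 11.32 without.

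Enzymes that make mediators were higher in part. Prostaglandin E2 is made by the inducible cyclooxygenase Ptgs2 and the synthase Ptges, and is degraded by Hpgd. Ptgs2 read 11.89 with LPS and 8.99 without (2.90), Ptges 10.87 with LPS and 8.27 without (2.60), and Hpgd 7.00 with LPS and 8.08 without (-1.08). Its receptors differed in direction: Ptger4 read 4.55 with LPS and 6.61 without (-2.06), while Ptger2 read 6.53 with LPS and 5.59 without (0.94). In the whole list of 18 prostaglandin and leukotriene genes, 2 were past 2-fold higher and 2 past 2-fold lower, with 7 above 0, 10 below 0 and a median of -0.025.

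Arginine, nitric oxide and itaconate genes had 5 of 12 at least 2-fold higher, 0 lower and a median of 0.86. Slc7a2, which imports arginine, read 9.43 with LPS and 5.86 without (3.57), and Slc7a11, the cystine transporter, 11.01 with LPS and 9.02 without (1.99). Gch1, the first enzyme of the synthesis of the nitric oxide synthase cofactor, was 1.46 higher. Acod1, which makes itaconate, was 1.25 higher from a control reading of 10.51, and Nos2, the inducible nitric oxide synthase, read 7.25 with LPS and 6.04 without (1.21). Glycolysis genes showed no such shift in this comparison: of 23 genes 0 were past 2-fold in either direction, the median was -0.10, and the glucose transporter Slc2a1 had the highest value at 0.59.

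Proteases and their inhibitors had 6 of 27 genes at least 2-fold higher, 1 lower and a median of 0.35. Of the 6, 1 (Timp1) reached the floor on the LPS array alone. Serpinb2, an inhibitor of plasminogen activators, read 9.75 with LPS and 5.84 without (3.91), and Plaur, the receptor of urokinase, 9.60 with LPS and 6.40 without (3.20). Mmp13, a collagenase, read 10.59 with LPS and 7.60 without (2.99). Mmp3, Timp1 and Adamts4 were 2.73, 2.58 and 2.00 higher. For Mmp3 the WT control array stood alone: it read 7.58 on the WT LPS array and 4.85 on the WT control array, and 7.57 with LPS and 7.54 without under the Bid-/- label. The acute phase genes Saa3 and Lcn2 were high on both arrays, at 12.33 with LPS and 12.20 without, and at 11.56 with LPS and 11.11 without.

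Of 20 adhesion and costimulation genes, which serve contact with T cells and matrix, 6 were past 2-fold higher and 0 past 2-fold lower, with 13 above 0 and 7 below. Cd83, an activation marker, read 8.46 with LPS and 5.80 without (2.66), the heparan sulphate proteoglycan Sdc4 11.08 with LPS and 9.23 without (1.85), and the costimulator Cd80 6.65 with LPS and 4.92 without (1.73). Cd44 and Itga5, receptors of hyaluronan and fibronectin, were 1.34 and 1.31 higher. Antigen presentation itself did not reach 2-fold in any of 17 MHC class I genes (median -0.19) or 6 MHC class II genes (median 0.255). Of 31 phagocytic and scavenger receptors, 3 were at least 2-fold higher, and the median was -0.06. Of the 3, 2 (Olr1 and Trem1) reached the floor on the LPS array alone. Of the 28 over the floor on the control array 1 was higher, beside 2.39% of all genes over the floor. Olr1, a scavenger receptor of oxidised lipoprotein, read 5.80 with LPS and 3.23 without (2.57), Trem1, which amplifies inflammation, 6.15 with LPS and 3.71 without (2.44), and the inhibitory receptor Fcgr2b was 1.27 higher.

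Several genes at the top of the ranking belong to other classes. Kdm6b, which removes a repressive histone H3 mark, read 7.63 with LPS and 4.53 without (3.10), and Tet2, which oxidises methylated DNA, 6.63 with LPS and 5.42 without (1.21); no other member of 31 chromatin regulators reached 2-fold. Ch25h, which makes an antiviral oxysterol, read 11.22 with LPS and 8.32 without (2.90). Rgs1, a brake on G protein signalling, read 8.68 with LPS and 5.52 without (3.16). The endosome adaptor Rab11fip1 was 3.07, Shisa3 3.08, Phlda1 2.76 and Dcbld2 2.68 higher. Of 18 iron and zinc genes, 2 were higher and 2 lower by 2-fold or more. In that list 9 were above 0 and 9 below 0, with a median of -0.01. Mt2, a metallothionein, read 8.51 with LPS and 6.62 without (1.89), and Slc39a14, a zinc and iron importer, 7.75 with LPS and 6.06 without (1.69). Slc40a1, the iron exporter ferroportin, read 6.54 with LPS and 8.16 without (-1.62), and Slc30a1 5.58 with LPS and 6.61 without (-1.03). On the arrays labelled Bid-/-, Mt2, Slc39a14, Slc40a1 and Slc30a1 changed by 0.45, 1.84, -0.58 and -1.25.

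The lists examined held 30 of the 231 lower genes, 106 of the 266 higher genes and 801 of all 11129 genes over the floor. Most lower genes and most higher genes are thus outside them. The lowest value was that of Gm4951, a gene model named after its value was seen, at 5.65 with LPS and 8.35 without (-2.70). Tmem140, a membrane protein, read 4.84 with LPS and 7.43 without (-2.59, 6.02-fold lower). Sesn1, a sestrin that FoxO factors and p53 induce and that restrains growth signalling, read 5.18 with LPS and 7.70 without (-2.52, 5.74-fold lower). Nuak1, a kinase related to AMPK, read 4.12 with LPS and 6.41 without (-2.29). With Klhl24 and Trp53inp1 these were the 4 genes at least 2-fold lower among 22 FoxO, sestrin and growth arrest genes, in which 1 gene, Depp1, was higher (1.43). The median of that list was -0.25, and Depp1 was under the floor on the control array.

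Nrros and the homeostatic list mark resting microglia. Nrros, which tethers latent TGF-beta on microglia, read 4.57 with LPS and 6.90 without (-2.33), and was the 1 gene of 24 in the TGF-beta list at least 2-fold lower. Of 20 homeostatic genes, 14 were below 0 and 6 above, and the median was -0.485. In this list 2 were at least 2-fold lower, Cx3cr1 and Bhlhe41, and 1 at least 2-fold higher, Bhlhe40. Bhlhe40 reached the floor on the LPS array alone. Bhlhe41, a transcriptional repressor of the circadian clock, read 4.38 with LPS and 5.91 without (-1.53), while its paralogue Bhlhe40 read 5.50 with LPS and 3.83 without (1.67). Mertk and Gas6, a receptor for dying cells and its ligand, were at -0.97 and -0.95. The canonical markers were close to the floor or differed less: Tmem119 read 5.31 with LPS and 5.83 without, P2ry12 3.91 with LPS and 4.33 without, Csf1r 10.10 with LPS and 10.61 without, and Aif1 9.60 with LPS and 9.73 without.

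The proton and lipid receptors Gpr65 and Lpar6 were among the 30 lowest changes. Gpr65, a proton-sensing receptor, read 6.74 with LPS and 8.75 without (-2.01), and Lpar6, a lysophosphatidic acid receptor, 6.35 with LPS and 8.24 without (-1.89). Their list of 17 had 4 genes at least 2-fold higher and 3 lower, so it moved both ways. Hcar2, the receptor of niacin and ketone bodies, was 1.69 and Gpr84, a receptor of medium-chain fatty acids, 1.43 higher. Of 10 purine signalling genes 9 were below 0. P2rx7, the ATP-gated channel that drives Nlrp3 activation, read 5.88 with LPS and 7.14 without (-1.26), and the 1 gene above 0 was P2ry2, a receptor of UTP and ATP, at 6.36 with LPS and 4.92 without (1.44).

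Most genes of the peroxisome, cholesterol efflux and lysosome lists were below 0, where 54.7% of all genes lay. Of 19 cholesterol synthesis genes 11 were below 0, with a median of -0.07. Of 25 peroxisome and fatty acid oxidation genes 23 were below 0, with a median of -0.51, but 1 was at least 2-fold lower: Abcd2, a peroxisomal transporter of very long-chain fatty acids, read 4.44 with LPS and 6.76 without (-2.32). Of 12 cholesterol efflux and LXR target genes, 9 were below 0, with a median of -0.38, while Ch25h was the 1 past 2-fold higher. Abcg1, the efflux transporter, read 8.99 with LPS and 10.05 without (-1.06), and Mylip, which degrades the LDL receptor, 7.36 with LPS and 8.36 without. Of 30 lysosome genes 26 were below 0, with a median of -0.21; Lipa, the acid lipase, read 9.48 with LPS and 10.49 without (-1.01). Galc, a lysosomal galactosylceramidase off that list, read 5.24 with LPS and 6.95 without (-1.71), and Slc17a5, which exports sialic acid from lysosomes, 5.75 with LPS and 7.50 without (-1.75). Ccnd1, cyclin D1, read 7.13 with LPS and 8.50 without (-1.37) and was the 1 of 21 cell cycle genes past 2-fold. Of 24 survival and death genes, 1 was at least 2-fold higher, Cflar, the caspase-8 inhibitor c-FLIP (1.08). Its other probe sets gave 0.34 and 0.52. Bid itself was at -0.67.

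The label microglia was checked against marker genes. Itgam read 10.44 with LPS and 10.54 without, and all 3 C1q chains read over 11 on both arrays, while 8 of 8 neutrophil markers and 9 of 10 neuron markers were under the floor. Of 15 microglia markers over the floor 12 were below 0 with LPS, with a median of -0.13. Markers of other cells were over the floor in part: 7 of 10 of the oligodendrocyte lineage and 5 of 7 of endothelium. On the control array itself, 4 of the oligodendrocyte lineage and 3 of endothelium were over it. Most of these readings were near the floor. The median level of the 10 oligodendrocyte lineage markers was 4.43 with LPS and 4.17 without. For the 7 endothelial markers it was 4.37 with LPS and 3.97 without. Cnp, at 7.60 with LPS and 8.58 without, was the highest of the oligodendrocyte lineage markers. Of 7 genes of monocytes and border macrophages with a value, 3 were over the floor and 4 under it. Of the 3, Ms4a7 read 9.83 with LPS and 9.60 without, and Pf4 9.63 with LPS and 9.23 without. F13a1 was near the floor, at 3.97 with LPS and 4.38 without. Fibroblast and mural markers were over the floor in 7 of 11 cases, and all 7 were above 0, with a median change of 0.76. Their summed linear values were 692 on the LPS array and 368 on the control array. Tagln, a smooth muscle actin-binding protein, read 6.70 with LPS and 5.10 without (1.60), and Dcn, the matrix proteoglycan decorin, 7.31 with LPS and 5.94 without (1.37). On the arrays labelled Bid-/- the same 7 genes had a median change of -0.04, and for 6 of the 7 the WT control array read lowest of the 4 arrays. The astrocyte connexin Gja1 read 5.99 with LPS and 4.84 without (1.15), the 1 of 6 astrocyte markers past 2-fold. In bulk RNA, more cells of a type and more RNA per cell cannot be told apart, and the part of these cells in the changes of Mmp3, Timp1 and other genes was not tested.

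The pair of arrays labelled Bid-/- gave a second measurement of LPS that shares no array with the WT pair, though it is no replicate of it. On that pair 293 of the same 11129 genes were higher by 2-fold or more (2.63%) and 177 lower (1.59%). Of the 266 genes higher in WT, 186 were at least 2-fold higher there too, which is 69.9% of the WT list and 63.5% of the other. A further 68 were above 0 and under 2-fold, and 12 were at or below 0. Of the 231 lower genes, 106 were at least 2-fold lower there too (45.9% of the WT list and 59.9% of the other), and the other 125 were all below 0. No gene (0) was at least 2-fold changed in opposite directions. Over the 266 higher genes the median change was 1.44 in WT and 1.36 on the other pair, and over the 231 lower genes -1.17 in WT and -0.96 on the other pair. These genes were chosen on the WT values, so the medians do not compare the size of the response between the labels.

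**Figure D4:**
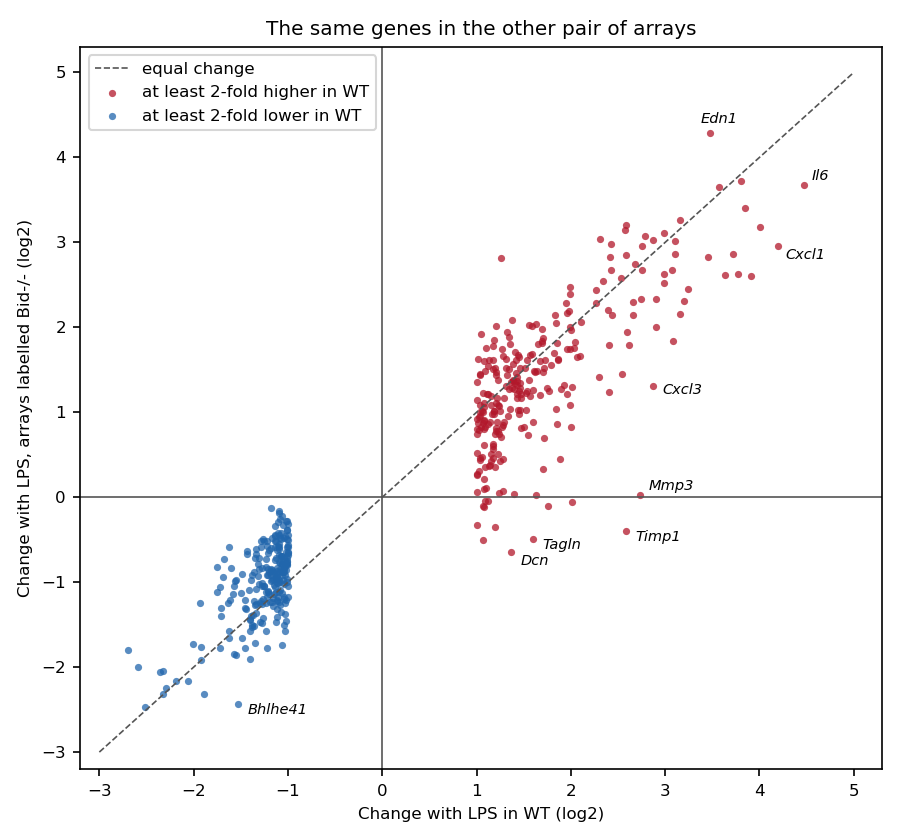
Change with LPS on the arrays labelled Bid-/- (vertical, log2) against the change in WT (horizontal, log2) for the 497 genes at least 2-fold changed in WT, with a dashed line at equal change. All 231 lower genes lie below 0 on both axes, and Timp1, Dcn, Tagln and Mmp3 lie near or below 0 on the vertical axis.

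The 12 genes at or below 0 on the other pair were Apod, Ccn2, Dcn, Igfbp7, Rmrp, Rnu3a, Rras2, S100a6, Sfrp4, Tagln, Timp1 and Tm4sf1. They are named because the count singles them out, after their values were seen. Timp1, an inhibitor of matrix proteases, read 6.80 with LPS and 4.22 without in WT (2.58), but 5.63 with LPS and 6.03 without under the Bid-/- label (-0.40). Mmp3, stromelysin-1, was just above 0 there at 0.03, beside 2.73 in WT. Dcn read 7.31 with LPS and 5.94 without in WT, and 7.44 with LPS and 8.09 without under the Bid-/- label (-0.65), so that the WT control array was again the lowest. Tagln was at -0.49. Inflammatory genes ran both close together and apart: Tnf was 2.87 in WT and 3.03 under the Bid-/- label, and Nlrp3 3.16 in WT and 3.26 under it. Il1a was 3.77 in WT and 2.63 under the Bid-/- label, Cxcl1 4.20 and 2.96, Serpinb2 3.91 and 2.61, Ptgs2 2.90 and 2.00, and Cxcl3 2.87 and 1.31. For each of these the WT control array read lower than the other control array. Without LPS, Il1a read 7.52 in WT and 8.83 under the Bid-/- label, Serpinb2 5.84 and 7.39, and Ptgs2 8.99 and 10.15. Cxcl1 read 6.06 and 6.55 without LPS, and Cxcl3 8.08 and 9.08. With LPS, Il1a read 11.29 in WT and 11.46 under the Bid-/- label, Serpinb2 9.75 and 10.0, and Ptgs2 11.89 and 12.15. Cxcl1 read 10.26 and 9.51 with LPS, and Cxcl3 10.95 and 10.39. A difference of response between the labels has no test with 1 array a group.

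Higher genes were shorter than lower ones. The median span from first to last base in RefSeq was 14215 bp for higher genes, 26799 bp for lower genes and 21064 bp for all genes over the floor. Spans under 10000 bp made up 41.1% of higher genes, 13.9% of lower genes and 28.7% of all. Genes were then split into 5 bins of equal size by span. In the bin with the shortest spans 4.23% were past 2-fold higher and 0.855% past 2-fold lower, and the median change was 0.10. In the bin with the longest spans 1.62% were higher and 2.07% lower, with a median of -0.11. Among families outside the response, 56 of 59 cytosolic ribosomal protein genes were above 0, with a median of 0.26, and 59 of 72 oxidative phosphorylation subunits, with a median of 0.205. On the arrays labelled Bid-/- these medians were -0.25 and -0.395. Other families lay mostly below 0 in WT: 151 of 222 Zfp genes (median -0.17), 119 of 185 solute carriers (-0.18), 36 of 55 Rab GTPases (-0.13), 24 of 32 Trim genes (-0.24), 20 of 28 sorting nexins (-0.47) and 20 of 25 TBC domain genes (-0.28). These families were picked with their values in view, and the part of gene span in the counts was not tested.

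**Figure D5:**
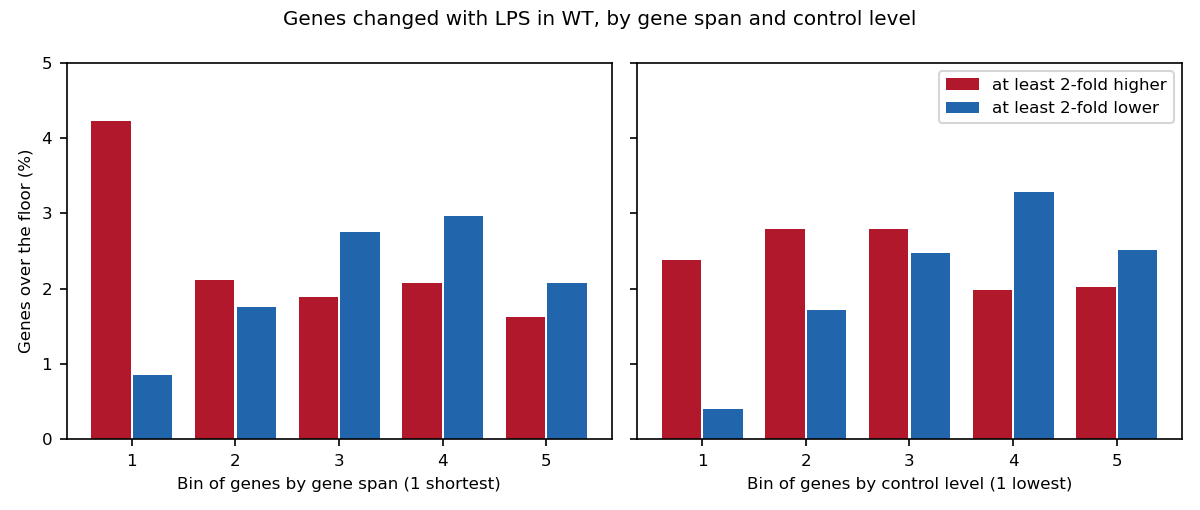
Percent of genes over the floor that were higher (red) or lower (blue) by 2-fold or more with LPS in WT, in 5 bins of gene span (left) and 5 bins of control level (right). The bin of the shortest genes has 4.23% higher and 0.855% lower, and the bin with the lowest control level 2.38% higher and 0.404% lower. The bin with the lowest control level holds 471 genes under the floor on the control array, which by the counting rule could not be lower.

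By control level, the share of higher genes ran between 1.98% and 2.79% over 5 bins, so higher genes came from all levels. The share of lower genes was 0.404% in the lowest bin, whose control readings ran from 2.65 to 4.81, and at most 3.28% in the others. The floor shapes that lowest bin. It holds 471 genes under the floor on the control array, which were counted only through the LPS array. None of these 471 could be lower, and 32 of the 266 higher genes are among them. At the other end, the 100 genes with the highest readings on the control array had changes between -0.64 and 0.77, and 0 of them reached 2-fold.

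Some genes are read by several probe sets, which gives a limited check within these arrays. For 23 changed genes with more than 1 probe set, 37 of 40 other probe sets moved in the same direction and 25 were also at least 2-fold. The counts are of probe sets and not of genes, so genes with many probe sets weigh most. Genes named for this check, after their values were seen, include Adgrl2, whose 8 probe sets ran from 1.05 to 1.94, and Cbx3, whose 7 ran from -1.43 to -1.19. Socs3 was 2.11 and 2.10 higher on its 2 probe sets. Hivep3 disagreed, at 1.32 and -0.14. Tra2a was at 1.04 beside 0.02 and 0.23 on its other probe sets, and Rybp at 1.14 beside 0.09. Probe sets of 1 gene on the same arrays share the RNA, so their accord says nothing of the spread between cultures. Some gave the same or nearly the same readings, such as probe sets of Cbx3 at 5.97 with LPS and 7.23 without. Whether such probe sets read shared sequence was not tested, so their accord may carry little weight.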

How the data were processed

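Total RNA of microglia was labelled from random primers and hybridised to Affymetrix Mouse Gene 1.0 ST arrays, per the labels' protocols. The authors deposited 1 table of values, taken here as log2 expression with 2 decimals; per the submitters' processing notes, RMA, Affymetrix Expression Console and Partek 6.2 were used, with no role or order given. That the scale is base 2 was inferred from the range, as the table does not state it, and folds depend on it. RMA is meant to equalise the distributions of arrays, which would remove any change common to all genes. The deposited WT arrays were close but not exactly equal, with medians over all probe sets of 4.28 with LPS and 4.245 without. With few arrays the precision is low.

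Symbols came from the platform annotation: 21789 probe sets had 1 symbol, 1621 several and 5534 none. Of the first, 21698 had an Entrez identifier in the RefSeq table of GRCm38.p6, which changed 0 symbols and gave spans, positions, promoters and microRNAs. For 999 genes with several probe sets, the one brightest on average across the 4 arrays stood for the gene. The change is the WT LPS array minus the WT control array, and a gene was called at a 2-fold difference (1 on the log2 scale). With 1 array a group there is no test. Named genes were the 30 highest and 30 lowest with given names, up to 6 members of each list by size of change, and fixed genes of the LPS response. The genes and lists were chosen with earlier results of these data known. Counting was tested on simulated data. Alternatives were another floor, another probe set rule, other scalings and a threshold raised by the rounding error of 0.01. Python 3.11.15, pandas 2.3.3, numpy 2.4.6 and statsmodels 0.14.6 were used.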

Additional observations from a re-analysis of the deposited data

Results flagged for a closer look

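Some changes with LPS ran in opposite directions under the WT and Bid-/- labels; these differences were not tested, since each rests on 1 pair of arrays. Timp1 changed by 2.58 in WT and by -0.40 under the Bid-/- label, Tagln by 1.60 in WT and -0.49, Dcn by 1.37 in WT and -0.65, Ccn2 by 1.20 in WT and -0.35, S100a6 by 1.07 in WT and -0.50, and Tm4sf1 by 1.00 in WT and -0.33. Cytosolic ribosomal protein genes had a median of 0.26 in WT and -0.25 under the Bid-/- label, and oxidative phosphorylation subunits a median of 0.205 in WT and -0.395.

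Probe sets outside the gene counts also differed between the WT arrays. Of 2051 probe sets over the floor with no gene symbol, 40 were at least 2-fold higher with LPS and 17 lower. Of 817 with several symbols, 9 were higher and 21 lower.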

How the results depend on the processing

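The counts of 266 higher and 231 lower genes stayed within 1.5 times under each alternative: between 251 and 317 higher, and between 160 and 261 lower. Their split depended on scaling. Higher genes made up 53.5% of the changed genes as reported, 58.2% after quantile normalization of the 2 WT arrays, 49.0% with each array centred on its median, and 66.5% with the trend of change on level removed (317 higher, 160 lower). The cause was not tested. Of the genes called, 264 of 266 higher and 160 of 231 lower kept their call with the trend removed. Of 139 named genes at least 2-fold changed, 6 lost 2-fold there (Cxcr4, Hpgd, Lipa, Mylip, Slc30a1 and Trp53inp1), 2 under quantile normalization (Mylip and Slc30a1), 1 with centring (Ccr7) and 1 with the mean of a gene's probe sets (Cflar), and 0 changed direction. Small list medians changed sign: prostaglandin and leukotriene genes turned to 0.08 and glycolysis genes to 0.031 with the trend removed. Each group has 1 array, so no replicate could be left out, and a fit of the LPS change over both labels was not run here. Readings near the floor limit the size of changes such as that of Csf2.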
